A study of Arabidopsis thaliana with 6 samples.

Results

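SAG101 (AT5G14930, probe set 246600_at) and GRX480 (AT1G28480, probe set 261443_at) are 2 Arabidopsis thaliana genes tied to salicylate-dependent defence, and they were taken by locus and probe set, 2 of 13350 genes with a probe set of their own in the annotation. Each gene has 1 probe set, and the annotation pairs each probe set with that gene alone. Both were picked with earlier results of these data known. Rosette leaves of the wild type Landsberg erecta (Ler) and of the flu mutant, allele flu1-1 in the same ecotype, were compared. Plants of both genotypes went through the same treatment: at 3 weeks of age, after growth on soil without any night, they spent 8 h in darkness and were then lit again for 30 min, 60 min or 2 h. Each of the 6 groups, a genotype at a time, is 1 Affymetrix ATH1 array of leaves from 5 to 6 plants, hybridised with RNA pooled from 2 experiments, so every group lacks a replicate and the small number of arrays sets the precision. The mutant is a single allele, and darkness without renewed light was not analysed here. For a difference already seen at 30 min, whether it arose before or after the light returned therefore cannot be told apart.

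The FLU protein restrains chlorophyll precursor synthesis in the dark, and flu plants returned to light release singlet oxygen in their plastids from the precursor that has built up. Salicylate is the plant hormone of defence against biotrophic pathogens. SAG101 is a lipase-like protein of the EDS1 family. It pairs with EDS1 and works with helper receptors of the NRG1 type in immunity set off by intracellular receptors, and its name comes from leaf senescence, where it was first described. GRX480, also named ROXY19, is a CC-type glutaredoxin, a class of small redox proteins found in land plants. It is induced by salicylate through the coactivator NPR1, binds TGA transcription factors, and at high levels holds back the jasmonate-responsive defensin gene PDF1.2.

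The authors had scaled all arrays to a trimmed mean of 500, and the median signal over the 6 arrays ran from 170.8 to 193.3. Hybridisation control RNAs, spiked in before hybridisation, had a geometric mean of 743 on the flu array of 30 min, against 1077 to 1468 on the other 5. The leaf label was checked against 5 named mesophyll genes (RCA, PSBW, PRK, LHCB4.1 and LHCB4.2), whose signals were 4036 or more on every array. The root hair gene EXPA7 stayed between 17.3 and 60.0 and the guard cell gene FMA between 228 and 363. PYK10, a beta-glucosidase gene of roots, had signals of 209, 141 and 257 in Ler and 347, 481 and 293 in flu, a mean log2 difference of 0.75 (limma adjusted p = 0.204, unadjusted p = 0.0323). Of the 5 mesophyll genes 0 passed the limma test between genotypes over the 3 times, although all had negative mean differences, from -0.73 to -0.30 on the log2 scale, and an unadjusted p under 0.05 in 5 of 5. Among all tested probe sets 11.2% were lower in flu at that unadjusted p, and the median of the mean differences was -0.11. After quantile normalization the median of the 5 mesophyll genes was nearer 0, at -0.13, against -0.10 over all tested probe sets. In leaf tissue of mixed cell types, fewer cells of a type and less RNA per cell cannot be told apart. Whether cell composition had a part in the results below was not tested.

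SAG101 had signals in Ler of 81.7 at 30 min, 130 at 60 min and 88.5 at 2 h. In flu its signals were 246, 522 and 406 in the same order. All 3 flu arrays were above all 3 Ler arrays, and the lowest flu signal was 1.89 times the highest Ler signal. Both genotypes had their highest SAG101 signal at 60 min. As ratios of signals, flu was 3.02-fold above Ler at 30 min, 4.01-fold at 60 min and 4.59-fold at 2 h.

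On the scale log2(signal + 50), where the added 50 damps the noise of dim probe sets and makes their differences smaller, the SAG101 differences between flu and Ler were 1.17, 1.67 and 1.72. Over the 3 times SAG101 was higher in flu by 1.52 (SE 0.21, 95% interval 1.01 to 2.03, limma adjusted p = 0.0172, above Ler at 3 of 3 times). The fit ran over 13069 probe sets with time as a factor, and adjusted p-values are Benjamini-Hochberg values over all of them. With 1 array per group its p-values measure the spread over the 3 times and not over replicates. In the same test 2.87% of all probe sets passed as higher in flu and 0.375% as lower. Without the arrays of 60 min the difference was 1.44 and no longer passed (adjusted p = 0.272).

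GRX480 had nearly constant signals in Ler, 170 at 30 min, 160 at 60 min and 170 at 2 h, a 1.07-fold range. In flu the signals were 397, 2886 and 4314. The groups did not overlap: the lowest flu signal, that of 30 min, was 2.33 times the highest Ler signal. Ratios of flu to Ler were 2.33 at 30 min, 18.1 at 60 min and 25.4 at 2 h. In flu the signal thus spanned 10.9-fold over the 3 times, with a 7.27-fold step from 30 to 60 min and a 1.49-fold step from 60 min to 2 h.

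**Figure D1:**
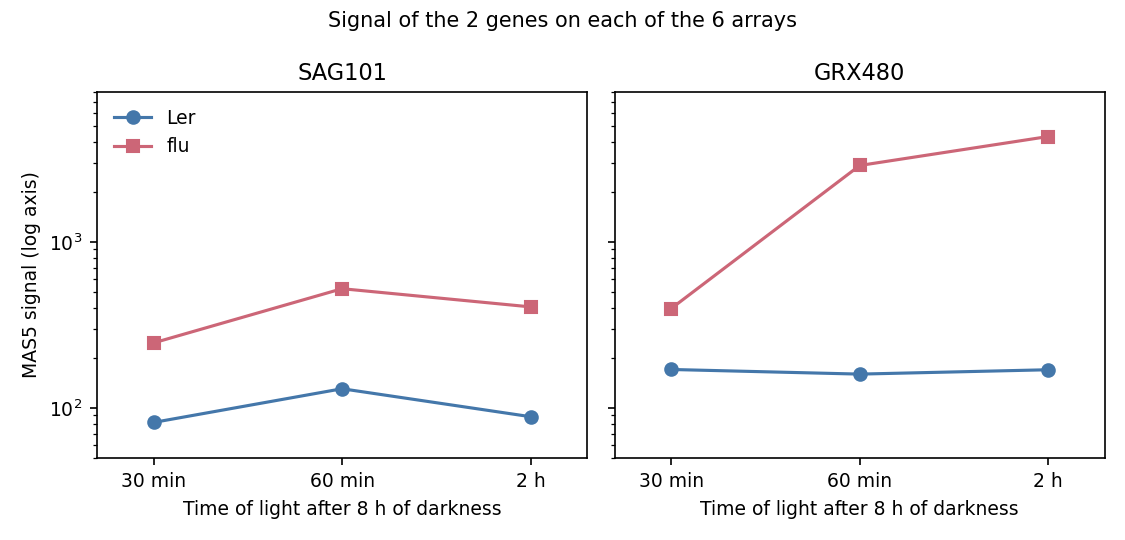
MAS5 signal (log axis) of SAG101, left, and GRX480, right, against time of light for Ler (circles) and flu (squares), 1 array per point and no error bars because no group has a replicate. SAG101 in flu lies between 246 and 522, above Ler at every time, and GRX480 in flu climbs from 397 to 4314 while Ler stays between 160 and 170.

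The log2 differences of GRX480 were 1.02, 3.81 and 4.31 at the 3 times. Their mean was 3.05 (SE 0.60, 95% interval 1.59 to 4.50), which did not pass the test over all probe sets (limma adjusted p = 0.0592), although all 3 times had flu above Ler. The spread over time that enters this SE is mainly the low value of 30 min. Without the arrays of 30 min, which include the flu array of low hybridisation controls, the mean was 4.06 and passed (adjusted p = 0.00262), and without those of 2 h it was 2.41 and passed as well (adjusted p = 0.00160). Without those of 60 min it was 2.67 (adjusted p = 0.379). Such fits hold fewer arrays, so their p-values lean more on the variance that limma borrows from all probe sets. Without 2 h the SE was 0.42, although the differences left, 1.02 and 3.81, lie far apart. The passes with a time left out are thus no added support for GRX480.

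A term for genotype by log2 minutes asked whether the difference between flu and Ler changed as the light went on. This term was known from an earlier analysis of these data to give a result for other genes, and its fit has 1 residual degree of freedom, the departure of the difference from a line. For GRX480 the difference rose by 1.65 per doubling of the time (SE 0.27, limma adjusted p = 0.00633), against a median of -0.07 over all probe sets. This slope is an average, since the differences of 1.02, 3.81 and 4.31 do not lie on a line. Most of the rise came between 30 and 60 min, and the SE leans on the variance that limma borrows from all probe sets. Of the 13069 probe sets 3.64% passed as rising and 1.44% as falling. The slope of SAG101, 0.27 (SE 0.24, adjusted p = 0.606), was not past the threshold. Of the 5 leaf genes 1, LHCB4.2, passed as falling (-0.59, limma adjusted p = 0.04996), and its part in these results was not tested.

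At 30 min SAG101 had 68.1% of its 2 h log2 difference and GRX480 23.7%. At 60 min the shares were 96.9% and 88.3%. Whether these shares differ between the genes was not tested.

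**Figure D2:**
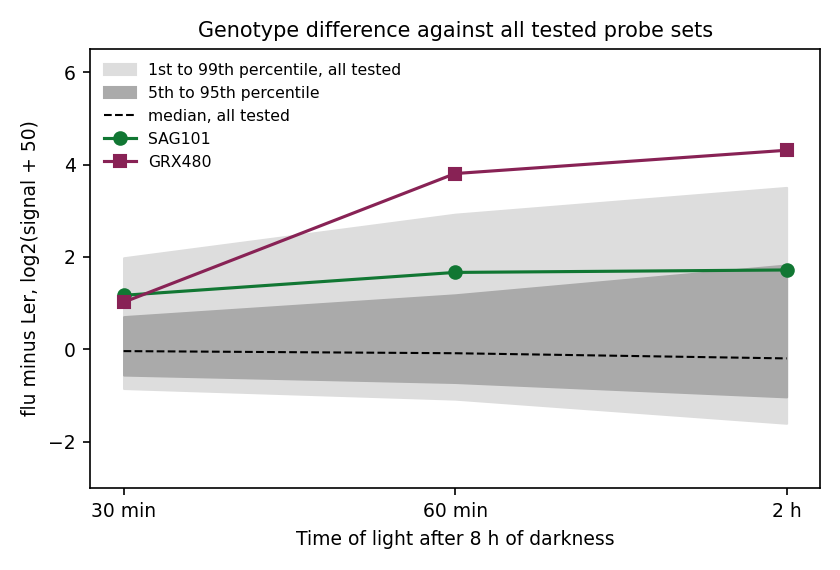
Difference between flu and Ler on the log2(signal + 50) scale against time of light for SAG101 (circles) and GRX480 (squares), with the median (dashed) and the 1st to 99th and 5th to 95th percentiles (shaded) of 13069 tested probe sets. GRX480 leaves the shaded range from 60 min on, at 3.81 and 4.31 against 99th percentiles of 2.93 and 3.51, while SAG101 at 2 h, with 1.72, is inside the 95th percentile of 1.83.

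Set against all tested probe sets, SAG101 ranked 321st of 13069 by its difference at 30 min, 415th at 60 min and 733rd at 2 h. GRX480 ranked 377th, 44th and 60th. The rank of SAG101 thus moved down while its own difference did not shrink, as more probe sets differed at the later times. At least 2-fold higher in flu were 2.98% of probe sets at 30 min, 6.11% at 60 min and 10.1% at 2 h. Both genes were at least 2-fold higher at each of the 3 times, as were 2.3% of all probe sets. At 30 min this depends on the offset, since with an offset of 100 the differences were 0.93 for SAG101 and 0.88 for GRX480, both under 2-fold. Both genes also had no overlap between the genotypes in the flu-high direction, found for 9.36% of probe sets. Taken alone with an exact permutation test of 3 arrays against 3, two-sided, each gene had p = 0.1, the smallest p such a test can give. That test takes the 3 times as replicates, which they are not, and leaves out the pairing by time. Any gene without overlap between the genotypes has this p, so it adds nothing to the lack of overlap.

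Both genes entered the fit through their flu arrays. A probe set was tested if its highest signal reached 184.8, the median of all values. On 0 of 3 Ler arrays and on 3 of 3 flu arrays did either gene reach it, so a gene selected this way had to differ. Without any such filter the adjusted p was 0.0404 for SAG101 and 0.120 for GRX480, and for the GRX480 slope 0.00202.

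Within each genotype the steps between times have no test, and the spread of all probe sets between Ler arrays serves as a yardstick. From 30 to 60 min the 5th and 95th percentiles of log2 changes in Ler were -0.55 and 0.54, and from 60 min to 2 h -0.54 and 0.51. SAG101 changed in Ler by 0.45 and then by -0.38, both inside these ranges. GRX480 changed in Ler by -0.07 and 0.07. In flu SAG101 went up by 0.95 from 30 to 60 min and then moved by -0.33, the latter within the Ler range. GRX480 in flu went up by 2.72 in the first step, the 14th highest of 13069, and by 0.57 in the second. A rise of at least 2-fold in flu was seen for 2.75% of probe sets in the first step and 4.38% in the second. Ordered by signal, GRX480 thus stood at 2 h and 60 min in flu, then 30 min in flu, then the 3 Ler arrays, which are too close to be ordered. SAG101 stood at 60 min, 2 h and 30 min in flu, followed by Ler, and within flu its signal at 2 h was not beyond the Ler range of its neighbours in that order, with -0.33 from 60 min and 0.62 from 30 min (Ler 95th percentile 0.63).

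Genes of the same pathways were listed by locus, 115 in 11 lists, of which 31 had a probe set of a single named gene and 22 were tested. SAG101 and the transcription factor gene WRKY53 passed as higher in flu and 0 passed as lower in limma, with 9 higher and 0 lower at an unadjusted p under 0.05, which 9.2% of all probe sets reached as higher and 11.2% as lower. GRX480, BSMT1, AT4G15680 and GSTU25 passed as rising with time and 0 as falling (8 and 0 unadjusted, against 9.45% and 9.46% of all probe sets). BSMT1 and GSTU25 reached the filter on the flu array of 2 h alone, so genes selected this way had to differ there. The lists hold the 2 genes themselves and were drawn up with earlier results known, so these counts describe the named probe sets only. For salicylate synthesis and transport, for NPR1 and its partners and for the TGA factors that GRX480 binds, 0 loci had a single-gene probe set in the annotation, and they were not analysed here.

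In the EDS1 family, SAG101 was the only gene tested of 9 listed. AT3G48080, listed beside EDS1, had signals of 59.4, 43.6 and 72.5 in Ler and 48.8, 62.1 and 39.3 in flu, too dim for the test. Its values overlap between the genotypes, unlike those of SAG101. SAG101 was picked with its result known and reached the filter on flu arrays alone, so this contrast says nothing about the family. Of the senescence-associated genes, from which SAG101 has its name, SAG29, a sugar transporter gene, was the other gene tested. SAG29 had signals of 75.5, 36.9 and 61.9 in Ler and of 237, 101 and 271 in flu. All flu arrays were above all Ler arrays, as for 9.36% of tested probe sets. SAG29 reached the filter on flu arrays alone, so a gene selected this way had to differ. Its mean difference of 1.17 (SE 0.29, limma adjusted p = 0.102) did not pass.

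Of 13 salicylate-responsive defence genes listed, only 1 had a single-gene probe set, WRKY53, a regulator of leaf senescence and defence. The rest of that list was not seen, so WRKY53 does not stand for it. WRKY53 had signals of 245, 209 and 123 in Ler and 2275, 2535 and 725 in flu. It was higher in flu by 2.82 (SE 0.24, limma adjusted p = 0.00289), with differences of 2.98, 3.32 and 2.16. Its highest difference came at 60 min, that of GRX480 at 2 h, and for SAG101 the order of these times turned with the offset (1.67 and 1.72 with 50, 1.43 and 1.42 with 100).

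BSMT1 encodes a methyltransferase that turns salicylate into its volatile methyl ester. In Ler its signals were 5.06, 5.89 and 40.7, and in flu 7.98, 37.1 and 1302. Both genotypes were dim at 30 min, and 1 array, flu at 2 h, carried a high signal. The differences were 0.07, 0.64 and 3.90, and rose by 1.91 per doubling of the time (SE 0.46, limma adjusted p = 0.0401). That call was lost with an offset of 16 (adjusted p = 0.146), after quantile normalization (0.111) and with a filter at the 75th percentile (0.330). The mean difference of 1.54 did not pass (adjusted p = 0.329).

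PDF1.2, the defensin gene held back by GRX480 at high levels, had signals of 26.6, 29.3 and 54.4 in Ler and 40.6, 26.3 and 32.6 in flu. All 6 were under the filter and the genotypes overlap, so no difference was detectable at this signal. Of the detoxification genes that depend on TGA factors, GSTU25, a tau class glutathione S-transferase gene, was the only gene tested. It had signals of 94.2, 63.9 and 45.6 in Ler and 38.0, 60.2 and 545 in flu, so that its high signal was, as for BSMT1, confined among these 6 arrays to flu at 2 h. Its difference rose by 1.67 per doubling of the time (SE 0.38, limma adjusted p = 0.0290), a call lost after quantile normalization (adjusted p = 0.0983).

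The CC-type glutaredoxins are the family of GRX480, and 17 of 21 listed genes had a probe set, 12 of them bright enough to be tested. Over the 3 times 0 of the 12 passed in either direction in limma, with 6 higher and 0 lower at an unadjusted p under 0.05 (9.2% and 11.2% of all probe sets), and 2, GRX480 and AT4G15680, passed as rising with time. The 6 include GRX480 and the neighbouring genes AT4G15660, AT4G15680 and AT4G15700. The median of the mean differences was 0.52 in the family, against -0.11 over all probe sets. These family values hold GRX480 itself, picked with its result known. GRX480, AT4G15690 and AT4G15700 reached the filter on flu arrays alone, so the values describe the 12 probe sets only. At 30 min 8 of the 12 had a difference above 0, at 60 min 11 and at 2 h 11. Among all tested probe sets 45% were above 0 at 30 min, 41% at 60 min and 35.4% at 2 h. The family medians at the 3 times were 0.17, 0.53 and 0.53, and GRX480, with 3.81 and 4.31, had the highest difference of the 12 at the later times. After quantile normalization the family median of mean differences was 0.52 and 9, 10 and 11 genes were above 0.

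AT4G15680 had signals of 503, 365 and 222 in Ler and 578, 832 and 994 in flu. With light, its signal thus went down in Ler and up in flu. The difference rose by 0.88 per doubling of the time (SE 0.18, limma adjusted p = 0.0174), a call lost with a variance prior without trend (adjusted p = 0.0561). AT4G15660 had signals of 549, 437 and 364 in Ler and 745, 1004 and 1311 in flu. Its differences were 0.41, 1.11 and 1.72, and neither its mean (1.08, SE 0.26, adjusted p = 0.0955) nor its slope (0.65, SE 0.17, adjusted p = 0.0534) passed in limma. The slope passed without a filter (adjusted p = 0.04996) and with the stricter filter (0.0486), and the mean without 30 min (1.42, adjusted p = 0.0329) and without time in the fit (0.0449). AT4G15700 had 109, 76.9 and 50.7 in Ler and 181, 210 and 305 in flu, and its mean of 1.13 (SE 0.31, adjusted p = 0.130) did not pass. It reached the filter on flu arrays alone, so a gene selected this way had to differ. AT4G15680, AT4G15660 and AT4G15700 belong to a run of 5 glutaredoxin genes that follow each other directly in RefSeq order (TAIR10.1), 4 of which have a probe set. Near-identical neighbours may share signal on an array, which was not tested, so the 4 cannot be counted as independent of each other. GRX480 is not part of that run.

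**Figure D3:**
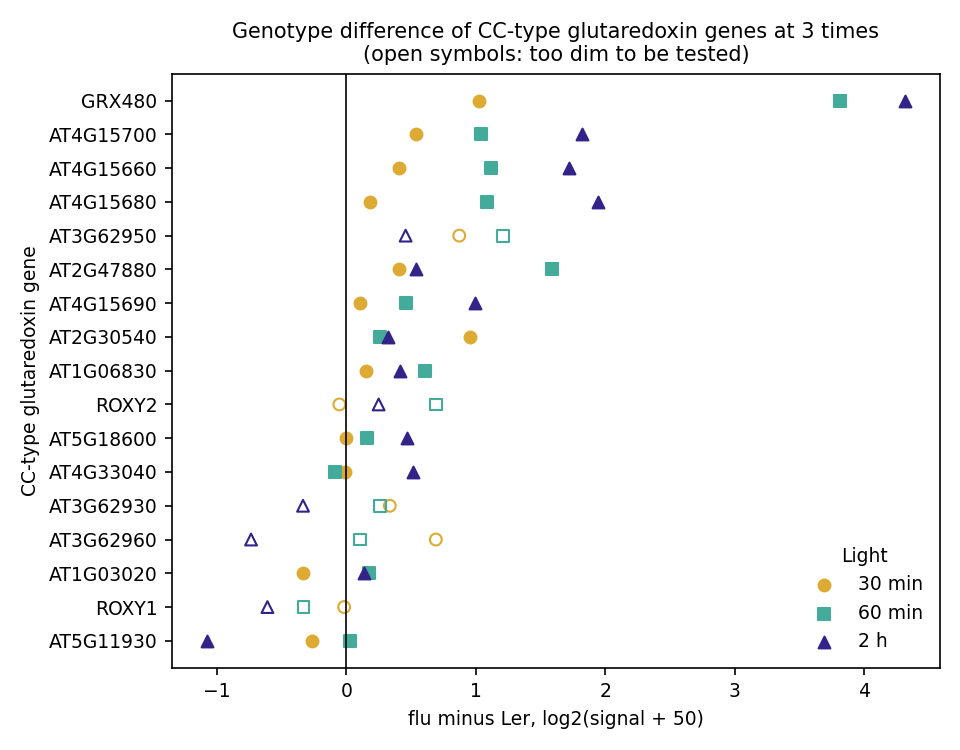
Difference between flu and Ler on the log2(signal + 50) scale (x axis) for the 17 CC-type glutaredoxin genes with a probe set (y axis, ordered by their mean), at 30 min (circles), 60 min (squares) and 2 h (triangles), with open symbols for the 5 genes too dim to be tested. GRX480 at 60 min and 2 h, with 3.81 and 4.31, lies apart from the others, of which the highest is AT4G15680 at 2 h with 1.94.

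The 5 tested glutaredoxins of other classes had a median of the mean differences of -0.03, and 0 of them passed in either limma test. At an unadjusted p under 0.05 there were 0 for the mean and 2 as rising, against 9.45% of all probe sets as rising. AT1G77370 had the largest, 0.43 (SE 0.27, adjusted p = 0.401), followed by AT5G20500 (-0.28, SE 0.14, adjusted p = 0.318) and GRXC1 (0.27, SE 0.15, adjusted p = 0.359). AT1G77370 had signals of 1286, 1337 and 958 in Ler and 1345, 1367 and 2281 in flu. As with BSMT1, it was the flu array of 2 h that stood out.

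Genes with the most similar profile were sought among the 6931 tested probe sets of a single named gene. Likeness was the root mean square distance between log2 values over the 6 arrays, each profile centred on its mean, and 8 genes were named for each. With this measure SAG101 and GRX480 were 1.11 apart, more than the median distance of 0.91 between SAG101 and all other probe sets, and less than the 1.91 for GRX480.

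The nearest gene to SAG101 was AT4G24110 at a distance of 0.075, whose Ler signals of 2.89, 27.6 and 8.12 were near background, with 75.4, 190 and 118 in flu. AT1G67060 (0.13) followed, with signals of 360, 369 and 319 in Ler and 763, 1496 and 1239 in flu. The others were AT1G63830, AT1G18740, AT5G04020, AT5G46910, AT1G43000 and AT1G76360, at distances from 0.176 to 0.185. Their mean differences from Ler ran from 1.30 for AT1G18740 to 1.75 for AT1G76360, against 1.52 for SAG101. As with SAG101, the flu signal of all 8 was highest at 60 min. The 8 were chosen by these same values, so this likeness and the similar mean differences follow from the choice.

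The genes nearest to GRX480 were farther from it, at 0.34 to 0.52. AT5G10695 (0.34) had signals of 337, 281 and 172 in Ler and 704, 3172 and 4519 in flu. AT1G61890 (0.40) had 588, 440 and 391 in Ler and 1119, 3870 and 6781 in flu. Then came AT2G32140, AT4G01870, AT4G27654, B120, AT4G13180 and AT1G19020. In all 8 the flu signal at 60 min was over that at 30 min, and in 6 of them it was highest at 2 h, AT4G27654 and AT4G13180 being the exceptions. This likeness to GRX480 also follows from the choice of the 8 by the same values. Ler signals were less even than those of GRX480 in each of these genes. A distance on this scale grows with the size of a profile, which is larger for GRX480 than for SAG101.

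**Figure D4:**
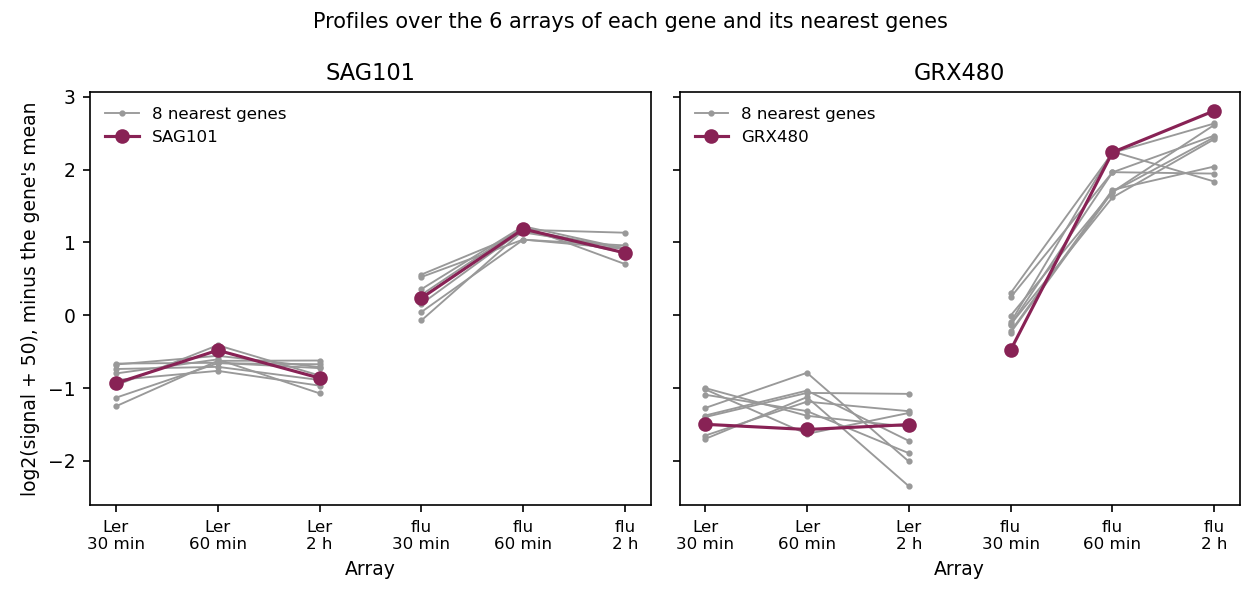
log2(signal + 50) minus the gene's mean over the 6 arrays (y axis) for SAG101, left, and GRX480, right (thick lines), and the 8 named genes nearest to each (thin lines), by array (x axis). Around SAG101 the profiles lie within distances of 0.075 to 0.185, and around GRX480 within 0.34 to 0.52.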

How the data were processed

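The authors deposited MAS5 signals, a linear intensity for each probe set, per the submitters' processing notes, and the sources used here do not state its version. The authors had scaled each array: the mean after trimming 2% at each end was 500 on all 6. Arrays were assigned to genotype and time by their titles. Because MAS5 takes off the signal of mismatch probes, dim values carry much noise, and detection calls were not used here. Of 22810 probe sets, 64 controls were left out, and 13069 whose highest signal reached 184.8 were tested.

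Signals were put on the scale log2(signal + 50) and fitted with limma 3.58.1 in R 4.3.3 (additive terms for time, as a factor, and genotype, an intensity trend in the prior, Benjamini-Hochberg adjustment, threshold 0.05). The fit left 2 residual degrees of freedom, and 1 with the added term for genotype by log2 minutes. Both fits were tested on simulated data. Plots were drawn with matplotlib 3.10.9 in Python 3.11.15.

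Names came from the platform annotation (13513 probe sets of 1 gene, 503 of several, 8730 unnamed here) and a RefSeq table of TAIR10.1, which matched 13436. Coordinates and sequences were not used here, as no build is named in the files. Members and lists were chosen with earlier results of these data known. Genes named from lists passed a test or were among the 3 largest mean differences of their list, and those named for likeness were the 8 nearest profiles. AT3G48080, PDF1.2, the tissue markers and the genes of the closing observations are outside this rule and were picked with their values known. Alternatives were offsets of 16 and 100, quantile normalization, the values as deposited, dropping the filter or raising it to the 75th percentile (590), a prior with no trend, leaving out each time in turn, and a fit without time.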

Additional observations from a re-analysis of the deposited data

Results flagged for a closer look

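Of the 22 tested genes from the pathway lists, 4 had a difference between flu and Ler that changed with the time of light. The test was the term for genotype by log2 minutes (limma, adjusted p under 0.05 over 13069 probe sets). Among all tested probe sets 3.64% passed as rising and 1.44% as falling. Per doubling of the time the slope was 1.65 for GRX480, 1.91 for BSMT1, 0.88 for AT4G15680 and 1.67 for GSTU25. Outside the lists, the leaf gene LHCB4.2 passed as falling. Of the genes nearest to GRX480, AT5G10695, AT1G61890, AT2G32140, AT4G01870 and AT1G19020 passed as rising. These nearest genes were chosen by the same values, so their calls are no added support. GRX480 had differences of 1.02, 3.81 and 4.31, and its step lay between 30 and 60 min. In BSMT1 and GSTU25 the flu array of 2 h alone carried the high signal. Both reached the filter on that array alone, so genes selected this way had to differ there. The residual of this fit has 1 degree of freedom, so the calls lean on the variance prior. The 3 differences of AT4G15680 (0.18, 1.09 and 1.94) lie close to a line over log2 minutes. Those of GRX480, of BSMT1 (0.07, 0.64 and 3.90) and of GSTU25 (-0.71, -0.05 and 2.64) do not. Over the 7 alternatives run for GRX480 its slope ranged from 1.58 to 1.70, with adjusted p from 0.00189 to 0.0460. The other calls were less stable. BSMT1 kept its call under 4 of 7 alternatives, GSTU25 under 5 of 6 and AT4G15680 under 6 of 7.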

How the results depend on the processing

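SAG101 kept its direction and its call under 9 of 10 alternatives, with adjusted p from 0.00284 to 0.272. The exception was 1.44 without the arrays of 60 min. The lowest adjusted p came without the arrays of 2 h. In the alternatives that kept all 6 arrays, the limma adjusted p ran from 0.0128 (quantile normalization) to 0.0404 (no filter). With a filter at the 75th percentile SAG101 was not tested, being too dim. GRX480 passed with that filter (3.05, adjusted p = 0.0380), with 30 min left out (4.06) and with 2 h left out (2.41), and did not pass under the other 8, whose adjusted p reached 0.379. The SAG101 difference at 2 h was 2.01 with an offset of 16 and 1.42 with an offset of 100, since the offset bears most on dim signals. The slopes of both genes kept their side of the threshold throughout, and without a time that fit has no residual. Probe sets higher in flu, 375, became 567 without 30 min, 75 without 60 min and 584 without 2 h. Those lower, 49, became 134, 0 and 113 in the same order, 14 without a filter, 77 with the stricter filter, 15 without trend and 131 without time in the fit. At an unadjusted p under 0.05, 482 were lower in limma without 60 min. Leaving out a time leaves fewer arrays, so calls made then lean more on the variance prior and are no added support. The cause of the other shifts was not tested. Rising slopes, 476, became 300 after quantile normalization and 279 without trend, and falling ones, 188, became 92 and 55. For the 26 other genes named, a set of alternatives added after seeing the data gave 454 values, of which 22 lost a call, 34 gained one and 3 changed sign, none of the latter past the threshold: GSTU25 had a mean of -0.38 without 2 h, AT1G43000 a slope of 0.043 with an offset of 100 and GRXC1 a slope of 0.050 after quantile normalization. No paired analysis was possible because the labels give no replicate numbers, beyond the pairing by time that the fit already holds (SE 0.21 for SAG101 with time, 0.27 without). Dim Ler signals limit how exactly a ratio can be given for either gene.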

Other observations

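UGT76B1, a glycosyltransferase gene that acts on salicylate and on isoleucic acid, had signals of 37.7, 54.3 and 104 in Ler and of 1.79, 22.5 and 144 in flu, all too dim for the test. UGT74F1, a glucosyltransferase gene of salicylate, stayed between 6.0 and 20.6 on all arrays. Genes beside SAG101 in RefSeq order differed from it: AT5G14940, the next gene, had a mean difference of -0.31 (limma adjusted p = 0.356), AT5G14910 one of -0.28 (adjusted p = 0.308) and GMII, a mannosidase gene of the Golgi, one of -0.05 (adjusted p = 0.883). Of the genes within 2 places of GRX480, AGL59, a MADS-box gene, had a named probe set, with signals between 24.3 and 43.4.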
